A study of Mus musculus with 6 samples.

Results

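The transcripts examined encode the markers by which Lineage- c-Kit+ Sca1+ (LSK) cells of mouse bone marrow are divided into stem cells and multipotent progenitors. They were chosen by gene symbol, as Kit, Procr, Slamf1, Cd48, Cd34, Flt3, Esam, Cd27, Fgd5 and Robo4. Of these 10 genes, 9 had 1 probe set each that the platform annotation names for that gene alone, out of 30748 genes with a probe set of their own. Cd27 shared its probe set with the microRNA gene Mir8113 and was therefore not analysed here. All 9 measured members passed the filter on dim genes, which left 19092 genes for testing.

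The arrays compared 3 samples of LSK cells from conditional knockout mice, of genotype miR-21flox/flox:Mx1-Cre+, with 3 from littermate controls of genotype miR-21flox/flox:Mx1-Cre-. Both groups carried the floxed alleles, and only the knockout carried Cre. Both groups were given 250 µg of pIpC by intraperitoneal injection every other day, 7 doses in all. Mice were 4 to 6 weeks old when the injections started, and cells were sorted 4 weeks after the injections. The compound pIpC is a synthetic double-stranded RNA that induces interferon and so the Mx1 promoter, which acts in blood cells and in other interferon-responsive cells; effects of Cre and of miR-21 loss cannot be told apart. The labels call the samples biological replicates without saying whether each was 1 mouse, so p-values measure the spread between these arrays.

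The LSK gate holds long-lived haematopoietic stem cells (HSC) and several kinds of multipotent progenitor (MPP). In the scheme used here, HSC carry CD150 (the product of Slamf1) without CD48 or Flt3, and MPP1 were taken to carry none of the 3. MPP2 carry CD150 and CD48, MPP3 carry CD48 alone, and MPP4 carry CD48 and Flt3. Use of the name MPP1 differs: other schemes give it CD150 and CD34, so that only CD34 sets it apart from HSC. MPP2 are known for megakaryocyte and erythroid output, MPP3 for granulocytes and macrophages, and MPP4 for lymphoid priming. CD34 is absent from long-term HSC of adult mice and present on the progenitors, while the products of Procr (EPCR), Esam, Robo4 and Fgd5 mark the stem cell end. The name surface marker does not suit Fgd5, whose product lies inside the cell and whose locus is used as a reporter of stem cells.

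The deleted miRNA is shown first because its loss defines the knockout, with the seed, bases 2 to 8, in capitals. It is given as in RefSeq on GRCm38.p6, at chr11:86584120-86584141 on the minus strand.
mmu-miR-21a-5p: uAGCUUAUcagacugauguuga

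The upstream sequences of 4 members are shown because 2 of these genes, Slamf1 and Cd48, were higher in the knockout and 2, Flt3 and Fgd5, were lower. Each is the 250 bases before the gene start in RefSeq (GRCm38.p6), written along the gene's own strand: Slamf1 at chr1:171766882-171767131 (plus), Cd48 at chr1:171681742-171681991 (plus), Flt3 at chr5:147400490-147400739 (minus) and Fgd5 at chr6:91978715-91978964 (plus). Capitals mark matches on either strand to 5 motifs of blood transcription factors, which were AGGAAG and GGAAGT for ETS factors (they overlap where AGGAAGT occurs), TGTGGT for RUNX, AGATAA for GATA and CAGCTG for E-box factors.
Slamf1: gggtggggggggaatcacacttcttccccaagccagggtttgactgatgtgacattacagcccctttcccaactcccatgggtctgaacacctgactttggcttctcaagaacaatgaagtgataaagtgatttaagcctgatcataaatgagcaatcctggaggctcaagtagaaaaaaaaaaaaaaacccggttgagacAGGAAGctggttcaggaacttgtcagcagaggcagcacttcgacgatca
Cd48: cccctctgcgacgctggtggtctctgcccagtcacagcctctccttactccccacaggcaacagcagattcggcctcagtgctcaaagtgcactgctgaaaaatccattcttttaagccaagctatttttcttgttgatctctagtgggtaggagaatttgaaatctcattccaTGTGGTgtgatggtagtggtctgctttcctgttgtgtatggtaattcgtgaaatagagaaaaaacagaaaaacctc
Flt3: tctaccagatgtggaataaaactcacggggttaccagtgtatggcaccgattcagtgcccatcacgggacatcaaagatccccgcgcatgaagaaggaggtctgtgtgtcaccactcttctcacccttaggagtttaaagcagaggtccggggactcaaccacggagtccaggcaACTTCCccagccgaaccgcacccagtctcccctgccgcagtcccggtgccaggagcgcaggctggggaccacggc
Fgd5: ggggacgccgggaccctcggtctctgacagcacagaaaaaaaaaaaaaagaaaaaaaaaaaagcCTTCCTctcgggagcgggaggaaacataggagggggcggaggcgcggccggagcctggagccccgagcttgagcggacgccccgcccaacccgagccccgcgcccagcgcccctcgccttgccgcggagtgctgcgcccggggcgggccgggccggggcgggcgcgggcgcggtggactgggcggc

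The RefSeq table held upstream sequence for 9 of the 10 genes. AGGAAG was found in 5 of these 9 (Slamf1, Cd34, Kit, Fgd5 and Robo4), against 29.5% of all 32851 upstream sequences. The other ETS form, GGAAGT, was found in Flt3 and in 19.7% of all, TGTGGT in Cd48 and in 14.0% of all, and CAGCTG in Procr and Robo4 and in 13.0% of all. AGATAA was found in none of the 9 and in 9.99% of all. Among the 4 sequences shown, the ETS letters occurred upstream of a gene that was higher (Slamf1) and of genes that were lower (Flt3 and Fgd5). These matches describe letters only.

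Values are deposited log2 array values (RMA), 1 array per sample, and a change is the knockout mean minus the control mean. Of the 9 members, 2 were higher in the knockout (Slamf1 and Cd48), 6 were lower (Fgd5, Flt3, Procr, Kit, Robo4 and Cd34) and Esam did not pass, by limma with Benjamini-Hochberg adjustment at 0.05 over all genes tested. Across all 19092 genes, 31.1% passed, 19.1% higher and 12.0% lower. The median change was -0.26 over the 9 members and 0.07 over all genes. Knockout and control values did not overlap for 8 of the 9 members, against 48.0% of all genes. Changes were modest: the median size among all genes that passed was 0.34, and among the members only Fgd5 changed by a fold of 1.5 or more. In RNA from a sorted population, fewer cells of a type and less RNA per cell cannot be told apart.

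**Figure D1:**
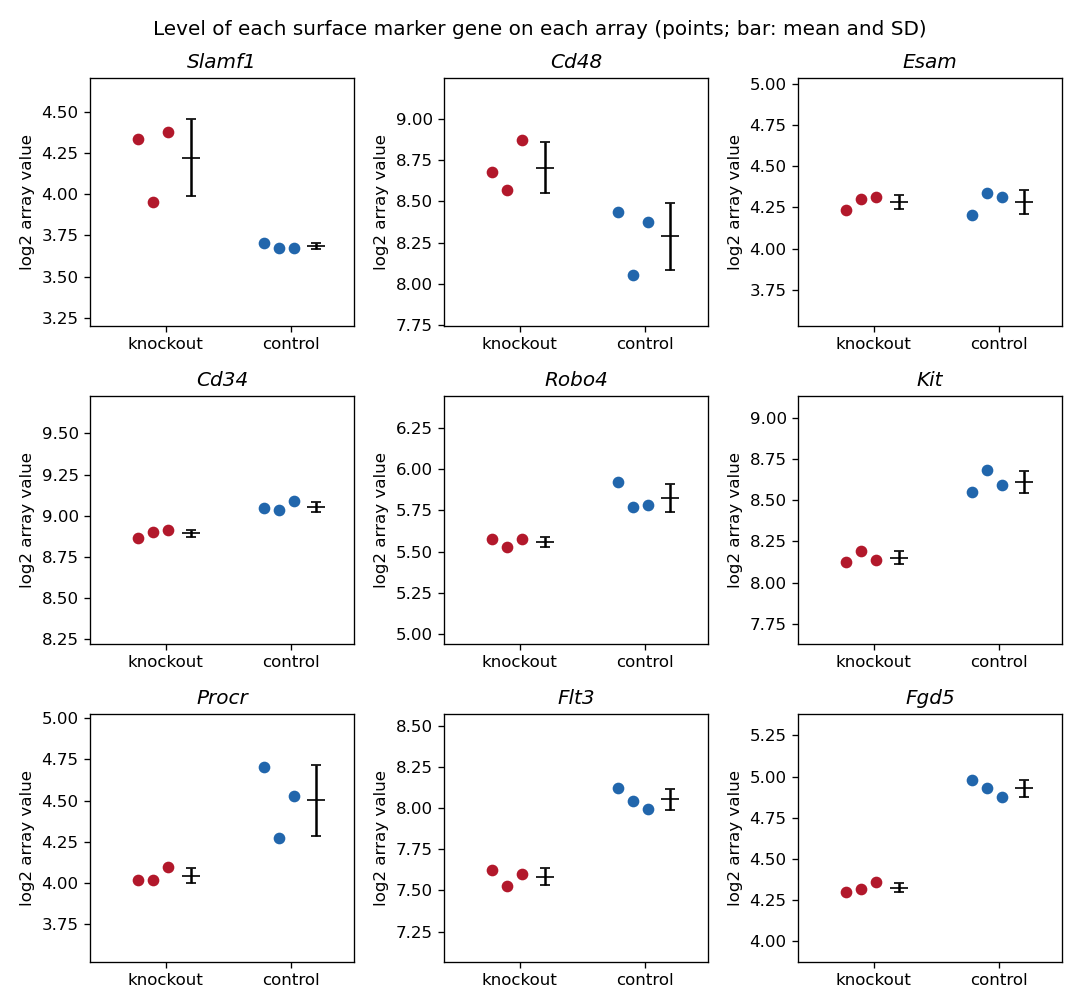
Log2 array value (vertical axes, each spanning 1.5 log2 units) of the 9 measured genes on the 3 knockout arrays (red points) and the 3 control arrays (blue points), with the group mean and SD as black bars. Both groups are separated in every panel except that of Esam, and the knockout points lie above the control points for Slamf1 and Cd48 and below them for the other 6.

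The SLAM receptor genes Slamf1 and Cd48 were the members that rose. Slamf1 encodes CD150, a receptor that binds itself on neighbouring cells and whose presence marks stem cells within LSK. Its log2 values were 4.34, 3.95 and 4.38 in the knockout (replicates 1, 2 and 3), against 3.71, 3.67 and 3.67 in the control. All knockout arrays lay above all control arrays, and knockout replicate 2 stood lower than the other two knockout arrays, whereas the control arrays had an SD of 0.02 (n = 3). Slamf1 rose by 0.54 ± 0.10 (SE, 1.45-fold, limma adjusted p = 0.00515), and 2.27% of all genes tested rose as far or farther.

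Cd48 encodes a GPI-anchored SLAM protein that stem cells lack and most progenitors carry. Its log2 values were 8.68, 8.57 and 8.87 in the knockout and 8.44, 8.05 and 8.37 in the control. The groups did not overlap but lay only 0.13 apart at their nearest arrays, knockout replicate 2 and control replicate 1. Cd48 rose by 0.42 ± 0.11 (SE, 1.34-fold, limma adjusted p = 0.0203). Without knockout replicate 3 the change was 0.34 with a limma adjusted p of 0.0702, so that this call was lost without that array. Without control replicate 2 the change was smaller still, 0.30, with a limma adjusted p of 0.0485.

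The genes of both cytokine receptors fell. Kit encodes the receptor for stem cell factor and is 1 of the 2 proteins that define the LSK gate, while the gene of the other, Ly6a, had no probe set of its own. Log2 values of Kit were 8.12, 8.19 and 8.14 in the knockout and 8.55, 8.68 and 8.59 in the control. The arrays within each group lay close together, and Kit fell by 0.46 on the log2 scale (SE 0.06, 1.37-fold, limma adjusted p = 7.81e-04). All of these cells had been sorted as positive for the Kit protein.

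Flt3 encodes the receptor for Flt3 ligand and marks MPP4, the lymphoid-primed progenitors. Its log2 values were 7.62, 7.53 and 7.60 in the knockout and 8.12, 8.04 and 7.99 in the control. The highest knockout array lay 0.37 below the lowest control array. Flt3 fell by 0.47 on the log2 scale (SE 0.06, 1.38-fold, limma adjusted p = 7.39e-04), a change of nearly the same size as that of Kit.

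Among the genes of the stem cell end, Fgd5 had the lowest change of all members. It encodes a guanine nucleotide exchange factor for Cdc42. Its log2 values were 4.30, 4.32 and 4.36 in the knockout and 4.98, 4.93 and 4.87 in the control. The gap between the groups, 0.52, was the widest among the members. Fgd5 fell by 0.60 on the log2 scale (SE 0.06, 1.52-fold, limma adjusted p = 1.16e-04), and 2.21% of all genes fell as far or farther.

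Procr encodes the endothelial protein C receptor, which marks the most primitive LSK cells. Its log2 values were 4.02, 4.02 and 4.10 in the knockout and 4.70, 4.27 and 4.53 in the control. The knockout arrays were close together and the control arrays were spread, with an SD of 0.04 in the knockout and 0.22 in the control (n = 3 each). Procr fell by 0.46 on the log2 scale (SE 0.10, 1.37-fold, limma adjusted p = 0.00854), and the change ran from -0.57 to -0.36 as each array was left out, with the call kept each time.

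Robo4, a Slit receptor family member found on endothelium and stem cells, had log2 values of 5.58, 5.53 and 5.58 in the knockout and 5.92, 5.77 and 5.78 in the control. It fell by 0.26 on the log2 scale (SE 0.06, 1.20-fold, limma adjusted p = 0.0126). Esam, which encodes an adhesion molecule of endothelial and stem cells, had log2 values of 4.23, 4.30 and 4.32 in the knockout and 4.20, 4.34 and 4.31 in the control. The groups overlapped fully, and the change of -0.0016 had a 95% interval of -0.14 to 0.14 (limma adjusted p = 0.988). A fall as large as that of Fgd5, Procr or Robo4 lay outside this interval.

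Robo4 and Esam are neighbours on mouse chromosome 9 in RefSeq (GRCm38.p6), with 2 coding genes between them. Of these, Robo3 fell by 0.39 on the log2 scale (SE 0.09, limma adjusted p = 0.00959), while Msantd2 changed by -0.06 (adjusted p = 0.559). Along this stretch the 2 genes that passed, Robo4 and Robo3, lie side by side. Robo3 and Msantd2 were named after their values had been seen, because they lie between the members.

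Cd34 encodes a sialomucin. Its log2 values were 8.87, 8.90 and 8.91 in the knockout and 9.05, 9.03 and 9.09 in the control. These groups did not overlap, and the change was the smallest among the members that passed: Cd34 fell by 0.16 on the log2 scale (SE 0.05, 1.12-fold, limma adjusted p = 0.0498). This call was lost with any 1 array left out (adjusted p from 0.0858 to 0.153) and with no filter on dim genes (0.0599).

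**Figure D2:**
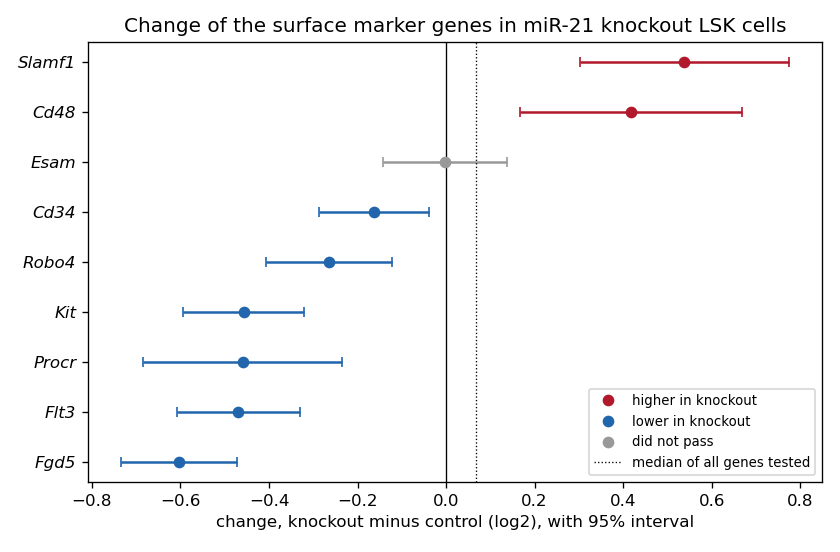
Change of each measured gene in log2 units (horizontal axis, knockout minus control, n = 3 arrays per group), with its 95% interval from limma; the dotted line is the median of all genes tested, 0.07. Slamf1 and Cd48 lie to the right of 0, the interval of Esam spans 0, and those of the other 6 lie to the left.

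The joint pattern was set against the scheme by counting, for each subset, how many of the 3 defining transcripts had passed in the direction of that subset's surface status (higher where the protein is carried, lower where it is not). MPP2 had 3 of 3, because Slamf1 and Cd48 were higher and Flt3 was lower. HSC had 2 of 3 (Slamf1 and Flt3), MPP3 had 2 of 3 (Cd48 and Flt3), and MPP1 and MPP4 had 1 of 3 each. Where MPP1 is instead taken to carry CD150, it has the 3 statuses of HSC and so the same count. A lower Flt3 is the direction of every subset except MPP4. In 13 of 14 alternative settings, all refits of the same arrays, MPP2 was again the only subset with 3 of 3. No 2 subsets of the scheme used here share all 3 statuses, so this restates that Slamf1, Cd48 and Flt3 kept their calls. In some of these settings Cd48 passed only narrowly. Its limma adjusted p was 0.0480 after a second quantile normalization, 0.0485 without control replicate 2 and 0.0428 without knockout replicate 1. The exception was the fit without knockout replicate 3, in which Cd48 did not pass and HSC and MPP2 had 2 of 3 each. With Cd34 added, taken as absent from HSC and present on every MPP, its lower level is the direction of HSC and not of any MPP. HSC and MPP2 then had 3 of 4 each, MPP3 had 2 of 4, and MPP1 and MPP4 had 1 of 4 each, so that MPP2 no longer stood alone; the call on Cd34 was itself lost with any 1 array left out.

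This count does not measure how many cells of a subset were present. It uses transcripts in a mixed population, whereas the scheme is defined by protein on single cells. The same 5 subsets differ in many other genes. Of the measured members outside the scheme that mark the stem cell end, none rose: Procr, Fgd5 and Robo4 fell and Esam did not pass. Slamf1, which is within the scheme, was the only measured member marking the stem cell end that rose.

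**Figure D3:**
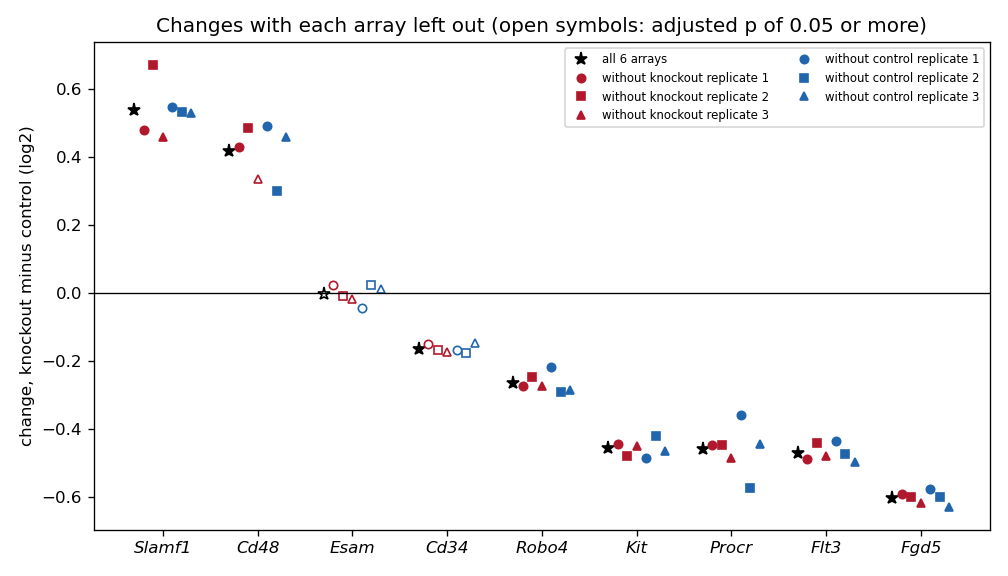
Change of each gene in log2 units (vertical axis) with all 6 arrays (star) and with each array left out in turn (red, a knockout array; blue, a control array), where open symbols have a limma adjusted p of 0.05 or more. Cd48 loses its call without knockout replicate 3, Cd34 loses it without any 1 array, and Esam does not pass in any of these fits.

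Genes described for each subset were then counted beside the markers. Of 19 tested stem cell enriched genes other than the members, 11 fell and 2 rose, while 6 did not pass (median change -0.37). The transglutaminase gene Tgm2 fell by 1.12 on the log2 scale, the niche-signalling ligand gene Angpt1 by 0.93, the transcription factor gene Hlf by 0.88 and Mmrn1 by 0.82. Trim47 rose by 0.42. The 11 that fell went in the direction of Fgd5 and Procr, and the 2 that rose, Trim47 and Sult1a1 (0.28), went in that of Slamf1.

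Of 21 megakaryocyte-erythroid genes, which are described for MPP2, 11 rose, 2 fell and 8 did not pass, and the median change was 0.23. Carbonic anhydrase 1 (Car1) rose by 0.99, the lipid transporter gene Mfsd2b by 0.85, and the transcription factor genes Gfi1b and Nfe2 by 0.65 and 0.54. Cnrip1 fell by 0.60 on the log2 scale. The integrin genes Itga2b (CD41) and Itgb3 (CD61), counted with the surface genes and named after their values had been seen, rose by 0.56 and 0.54.

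Of 18 granulocyte-monocyte genes, which are described for MPP3, 17 rose and none fell, while Csf2ra did not pass (0.07). Their median change was 0.89. Ms4a3 rose by 3.20, haptoglobin (Hp) by 2.22, neutrophil elastase (Elane) by 2.06 and the surface antigen gene Ly6c2 by 1.77. All 7 neutrophil markers rose with them (median 1.05), and the mean log2 level of those markers was 5.28 to 5.45 on the knockout arrays and 3.91 to 4.16 on the control arrays. Myeloid genes counted with the surface genes went both ways. Fcgr2b rose by 1.33, Fcgr3 by 1.29, Clec12a by 0.97 and Csf1r by 0.67, while Cd33 fell by 0.85 and Csf3r by 0.34 on the log2 scale. Among mast cell and basophil markers, 3 of 4 tested rose. The mean level of the 4 was 4.44 to 4.73 on the knockout arrays and 3.46 to 3.56 on the control arrays. Of those that rose, Fcer1a had a control mean of 1.70. That is below 1.92, the level under which a gene was called dim, so the size of its change is uncertain. The part of such cells, or of their precursors, in the changes of the members was not tested.

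Of 15 lymphoid-primed genes, described for MPP4, 9 fell and none rose, while 6 did not pass (median change -0.27). Lax1 fell by 1.01 on the log2 scale, Mef2c by 0.74, the B cell adaptor gene Blnk by 0.61 and the chromatin organiser gene Satb1 by 0.57, all farther than Flt3. Il12rb1 had the highest change, 0.03, and did not pass.

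**Figure D4:**
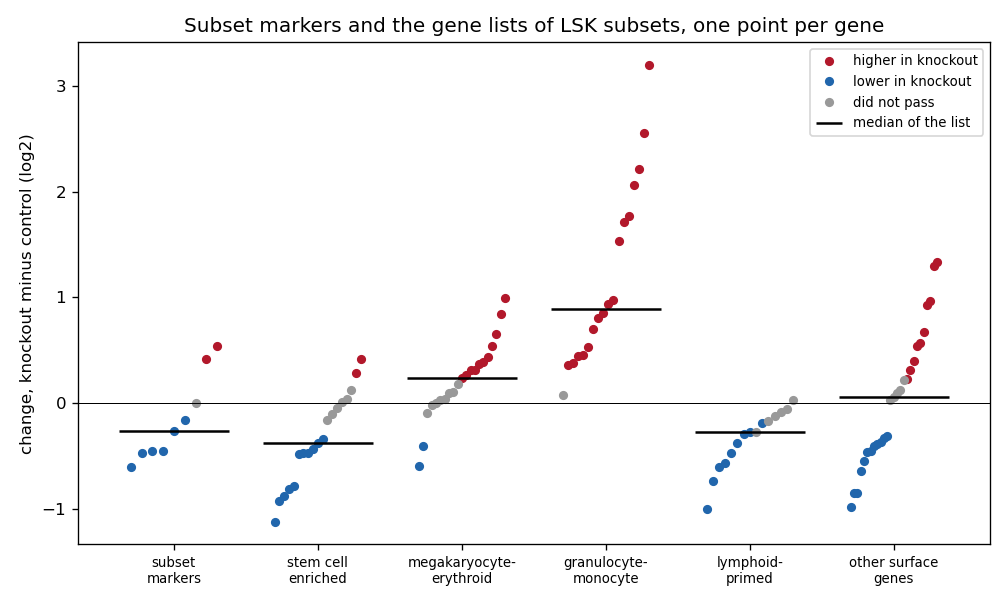
Change in log2 units (vertical axis, knockout minus control) of each gene of 6 lists, ordered within the list, where red points passed as higher, blue points passed as lower, grey points did not pass and the bar is the median. The medians are -0.26 for the subset markers, -0.37 for stem cell enriched, 0.23 for megakaryocyte-erythroid, 0.89 for granulocyte-monocyte, -0.27 for lymphoid-primed and 0.06 for other surface genes.

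Other surface genes, of LSK subsets and of later progenitors, moved both ways. Of 27 tested, 10 rose, 12 fell and 5 did not pass, and the median change was 0.06. The Fc receptor genes Fcgr2b and Fcgr3, whose proteins mark granulocyte-monocyte progenitors, rose by 1.33 and 1.29. Prom1 rose by 0.93, but its control mean of 1.63 was below 1.92, the level under which a gene was called dim, so the size of its change is uncertain. The endomucin gene Emcn, which marks stem cells and endothelium, fell by 0.98 on the log2 scale, and Cd33 and the hyaluronan receptor gene Cd44 each fell by 0.85.

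Within the SLAM family, 6 of 11 listed genes were tested, the 2 members among them. Slamf8 rose by 0.27, Ly9 fell by 0.28 on the log2 scale, and Cd84 and Slamf6 did not pass, at 0.03 and -0.01. Ly9 (adjusted p = 0.0433) lost its call in 7 of the 14 alternative settings. In RefSeq the only annotated coding gene between Cd48 and Slamf1 on chromosome 1 was Tma7-ps, at 0.20 with an adjusted p of 0.251, and Cd84 lies on the far side of Slamf1. Slamf1, Cd48 and Slamf8 were thus the tested genes of the family that rose.

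Of 9 tested genes for ligands and partners of the members, 1 rose, 1 fell and 7 did not pass, while 31.1% of all genes passed. The signalling adaptor gene Traf2 rose by 0.46, and F2r, which encodes the thrombin receptor PAR1 through which EPCR-bound protein C signals, fell by 0.48 on the log2 scale. Flt3l (-0.12), Proc (0.16) and Cdc42 (-0.07) did not pass. The genes of the ligands Kitl, Cd70 and Slit2 were dim.

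Endothelial cells also carry Procr, Esam, Robo4 and Fgd5, so their markers were counted. Of 10, 1 had no probe set of its own and 4 were dim (Kdr, Ptprb, Lyve1 and Mmrn2). Of the 5 tested, Tie1 fell by 0.47 on the log2 scale and 4 did not pass, while 31.1% of all genes passed. The mean level of the 5 was 3.22 to 3.27 on the knockout arrays and 3.22 to 3.32 on the control arrays. VE-cadherin (Cdh5), a defining endothelial gene, was at 2.03 ± 0.02 in the knockout and 1.93 ± 0.10 in the control (SD, n = 3 each), close to the dim level in both groups.

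Other lineages were counted in the same way, beside all genes tested, of which 31.1% passed, 19.1% higher and 12.0% lower. Of the markers tested, 1 of 3 for B cells rose, none of 3 for T cells passed, and 1 of 2 for NK cells rose and 1 fell. The NK cell gene that rose, Klrb1c, had a control mean of 1.85, and the one that fell, Prf1, had a knockout mean of 1.89. Both means are below 1.92, the level under which a gene was called dim, so the sizes of these changes are uncertain. For monocytes and macrophages 1 of 4 rose (Csf1r, 0.67). For megakaryocytes and platelets 2 of 4 rose, and the 1 tested for erythroblasts did not pass. The mean level of the megakaryocyte and platelet markers tested was 4.33 to 4.41 on the knockout arrays and 4.10 to 4.13 on the control arrays. For monocyte and macrophage markers it was 3.60 to 3.67 on the knockout arrays and 3.19 to 3.43 on the control arrays, and for B cell markers it was 4.09 to 4.15 on the knockout arrays and 3.98 to 4.04 on the control arrays. These 3 pairs of ranges did not overlap, but neither did the groups for 48.0% of all single genes tested. Only Cd79b passed among the B cell markers and only Csf1r among those of monocytes and macrophages. The part of such cells in the changes of the members was not tested. For T cell markers the mean level was 2.17 to 2.24 on the knockout arrays and 2.11 to 2.19 on the control arrays, and for the erythroblast marker 3.13 to 3.18 on the knockout arrays and 3.02 to 3.16 on the control arrays. These ranges overlapped, as did those of the NK cell markers. Across the series, arrays of the same group correlated at 0.995 to 0.997 and arrays of different groups at 0.987 to 0.991 over all probe sets, and no array stood apart in its median. The probe set that spans the deleted locus also covers the host gene Vmp1 and had 5.68 ± 0.07 in the knockout and 5.63 ± 0.02 in the control (SD, n = 3 each), so it does not check the deletion.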

How the data were processed

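Biotinylated cDNA from 250 ng of total RNA was hybridised to Affymetrix arrays, per the labels' protocols. The authors deposited 1 table of log2 values with a column per array; the submitters' processing notes name RMA, and its version, the genome build and the log base are not given in the sources used here. Base 2 was taken because the highest value was 11.5. RMA forces a common distribution on the arrays, so a change shared by most transcripts would not be seen. There is no count behind an array value, and the number of arrays, 3 per group, limits the precision.

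The 65956 probe sets were named through GEO's platform annotation, with symbols updated by Entrez ID to RefSeq (GRCm38.p6): 31221 had 1 gene, 1529 several and 33206 were not listed. For genes with several probe sets the brightest was used, and genes with a mean under the median of all probe sets (1.92) were left out as dim. The 2 groups were fitted without covariates in limma 3.58.1 under R 4.3.3, with two-sided moderated tests (lmFit, then eBayes), with Benjamini-Hochberg adjustment over the 19092 genes kept; the fit was tested on simulated data. The named genes were all members and, from each list, the 4 with the smallest p and the highest and lowest change; other genes were named after their values had been seen. The members and lists were chosen with earlier results of these data known. Some lists share genes (Pf4, Gp9, Itgb3, Csf1r and Vcam1 among them), so their counts are not separate evidence. The alternatives were other filters, scalings, probe set summaries and tests, the replicate number as a block, and leaving out each array.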

Additional observations from a re-analysis of the deposited data

How the results depend on the processing

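Of the 9 members, Kit, Procr, Slamf1, Flt3, Fgd5 and Robo4 kept their direction and their call in all 14 alternatives. Cd48 kept it in 13 and Cd34 in 7. Without knockout replicate 3, 1 member was called higher (1 to 2 over the arrays left out in turn), and the genes called higher were 2333 (2333 to 3105 over the arrays left out), against 2 and 3650 with all arrays. For Slamf1 the change ran from 0.46 to 0.67 as arrays were left out. Esam changed sign without passing: it was at 0.037 after a second quantile normalization and ran from -0.042 to 0.025 as arrays were left out (above 0 without knockout replicate 1, control replicate 2 or control replicate 3). In the SLAM family 0 genes were called lower, against 1, with no filter on dim genes, with arrays centred on their medians, and without each array except knockout replicate 3; the fits that leave out an array have fewer samples, and for the others the cause was not tested. The samples share only a replicate number: deviations from the group means of same-numbered arrays correlated at 0.17, 0.20 and 0.07. Every array correlated best with its own number in the other group, which is a hint from the data and not from the design. With the replicate block, 4573 genes were called higher and 2639 lower, and the members again numbered 2 higher and 6 lower. With 3 arrays per group and no scanner background among the values used here, changes of dim genes are the least certain.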
